A study of Mus musculus with 61 samples.

Results

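The genes described here are 6 immediate early genes of the mouse, Fos, Fosb, Junb, Egr1, Ier2 and Zfp36, chosen by name from the 15149 genes of an RNA sequencing table of sorted retinal cells. All 6 were in the table. The 61 libraries fell into 5 groups. From 9-month DBA/2J mice that received 500 mg/kg/d of nicotinamide, a form of vitamin B3 from which cells make NAD, there were 7 libraries, and 9-month DBA/2J mice on water gave 25. D2-Gpnmb+ mice of 9 months on water gave 9 libraries, DBA/2J mice of 4 months on water gave 10 and D2-Gpnmb+ mice of 4 months on water gave 10. DBA/2J carries a mutated Gpnmb and develops an inherited glaucoma as it ages, whereas D2-Gpnmb+ has the same background with a functional Gpnmb and serves as its control. The labels describe all retinas as coming from eyes whose optic nerves showed no glaucomatous axon loss, so the 9-month DBA/2J groups stand for the time before degeneration. Retinas were digested with dispase and DNase I for 20 minutes at 37 °C before cell sorting, in every group. The sort kept Thy1.2-positive cells negative for Cd11b, Cd11c, Cd34, Cd45.2 and GFAP, which the labels call retinal ganglion cells. Nothing in the labels ties each library to its own animal, and the p-values therefore reflect variation between libraries, which may be technical.

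Immediate early genes are transcribed within minutes of a stimulus, without new protein synthesis, when calcium and MAP kinase signals act on factors such as SRF, ELK1 and CREB that already sit at their promoters. Fos and Fosb encode Fos family subunits, and Junb a Jun family subunit, of the dimeric AP-1 transcription factor. Egr1, also called Zif268, encodes a zinc finger transcription factor that binds GC-rich sites, Ier2 a small nuclear protein, and Zfp36 the RNA-binding protein tristetraprolin, which promotes decay of mRNAs with AU-rich elements. In the retina such genes are known to respond to light, injury and neuronal activity, and in many tissues also to the handling of cells during enzymatic dissociation.

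The promoters of 4 of the 6 genes are shown because immediate early genes are known to be switched on through short elements near their start. RefSeq promoter sequences on GRCm38.p6 were matched for Fos, Fosb, Junb and Zfp36, from 250 bases before to 50 after the annotated start. The windows are chr12:85473640-85473939 on the plus strand for Fos, and chr7:19309996-19310295 for Fosb, chr8:84978699-84978998 for Junb and chr7:28379179-28379478 for Zfp36 on the minus strand. Capitals mark the motifs found. Elements more than 250 bases before the start lie outside these windows and were not searched for.
Fos: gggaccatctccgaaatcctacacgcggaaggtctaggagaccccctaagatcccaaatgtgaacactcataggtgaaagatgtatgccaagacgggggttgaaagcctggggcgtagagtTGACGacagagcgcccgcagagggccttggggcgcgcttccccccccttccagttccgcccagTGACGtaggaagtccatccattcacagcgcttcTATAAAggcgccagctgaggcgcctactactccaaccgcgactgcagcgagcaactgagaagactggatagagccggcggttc
Fosb: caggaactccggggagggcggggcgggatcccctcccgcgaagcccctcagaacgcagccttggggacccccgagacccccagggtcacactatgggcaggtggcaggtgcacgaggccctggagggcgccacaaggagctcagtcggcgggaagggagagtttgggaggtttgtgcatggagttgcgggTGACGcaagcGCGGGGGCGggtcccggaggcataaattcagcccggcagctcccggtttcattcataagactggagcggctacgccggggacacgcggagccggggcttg
Junb: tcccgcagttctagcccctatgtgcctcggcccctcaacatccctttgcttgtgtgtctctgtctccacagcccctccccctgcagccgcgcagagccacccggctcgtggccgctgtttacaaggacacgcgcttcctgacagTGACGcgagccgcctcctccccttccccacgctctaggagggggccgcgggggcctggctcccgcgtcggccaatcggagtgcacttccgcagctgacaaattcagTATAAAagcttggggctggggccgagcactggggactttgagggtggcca
Zfp36: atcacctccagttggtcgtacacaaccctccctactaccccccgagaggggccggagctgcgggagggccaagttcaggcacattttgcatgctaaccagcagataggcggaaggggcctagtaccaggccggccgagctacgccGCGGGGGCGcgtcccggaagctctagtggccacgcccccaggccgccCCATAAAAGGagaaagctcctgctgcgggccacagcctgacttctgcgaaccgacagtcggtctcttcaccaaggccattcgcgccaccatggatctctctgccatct
In all 6 motifs were searched for on both strands, the TATA box on the sense strand alone. The core of the cyclic AMP response element, TGACG, was present in the windows of Fos, at 2 places, and of Fosb and Junb, and 20.8% of all 32851 promoter windows of this length hold it. The EGR motif GCGNGGGCG was present in Fosb and Zfp36 (5.55% of all windows), and a CArG box, the motif of SRF, in Zfp36 (1.63% of all windows). The letters TATAAA of the TATA box were present in Fos, at position −33 from the RefSeq start, and in Junb, where they begin at the RefSeq start itself (8.32% of all windows). The GENCODE gene spans given below start at other bases for Fosb, Junb and Zfp36. That of Junb starts inside the window, downstream of TATAAA, so the position of these letters depends on the annotation. That of Zfp36 starts upstream of the window shown. Neither the full element TGACGTCA (1.79% of all windows), which contains the core, nor the AP-1 motif TGANTCA (7.81% of all windows) was found in these 4 windows.

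On GRCm38, Fos lies at chr12:85473890-85477273, Egr1 at chr18:34859823-34864984, Fosb at chr7:19302696-19310051, Zfp36 at chr7:28376784-28380253, Junb at chr8:84974484-84978718 and Ier2 at chr8:84661331-84662852, and the values count reads over the exons of each gene. Exons of Junb share 173 bases with Prdx2 on the opposite strand, and exons of Zfp36 share 125 bases with the antisense gene Gm44710. Whether the counting used strand is not given in the sources used here, so reads in those bases cannot be told apart.

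Libraries held 5133114 to 19501444 reads (median 9730486). Markers of rods were far more abundant than those of ganglion cells. Over the 61 libraries the summed normalised read count of 12 rod markers ran from 722 to 72632 (median 7660.3), whereas the 10 ganglion cell markers found in the table summed to 30.2 to 256 (median 68.3). Of the 13 ganglion cell markers looked for, Pou4f2, Pou4f3 and Isl2 were not among the table's genes. In such mixed samples fewer cells of a type and less RNA per cell cannot be told apart. The columns of the table form 3 stretches, called blocks 1, 2 and 3, with 10, 18 and 33 libraries. The division was made after the values had been looked at. Its counts per group equal those of 3 series of sample numbers in the sample titles, and the labels give no meaning for these series. Block 3 holds every 4-month and every nicotinamide library, with 3 libraries of each 9-month water group. Block 1 holds 6 DBA/2J and 4 D2-Gpnmb+ libraries of 9 months, and block 2 holds 16 and 2. For age and for nicotinamide, block and group are therefore largely joined, and values within block 3 are given beside the pooled ones.

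Per kilobase of exon, averaged over the 61 libraries, Egr1 had the highest level (a normalised read count of 13.7 per kb), followed by Fos (10.1), Zfp36 (3.73), Ier2 (1.68), Fosb (1.11) and Junb (1.04). Every library held at least 1 read of each gene. Junb, Ier2 and Fosb were measured from few reads in young animals, with medians of 8.5, 11 and 9 reads in DBA/2J of 4 months and of 6, 6 and 14 in D2-Gpnmb+ of 4 months. Egr1 had medians of 268.5 and 209 reads in the same groups.

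For Fos, Fosb and Egr1, the means of both water groups of 9 months lay above those of the other 3 groups, and the nicotinamide mean lay near those of young mice. Mean normalised read counts of Fos were 11.4 ± 5.69 in DBA/2J with nicotinamide, 31.3 ± 12.99 in DBA/2J of 9 months, 35.6 ± 37.5 in D2-Gpnmb+ of 9 months, 15.7 ± 8.73 in DBA/2J of 4 months and 10.6 ± 3.54 in D2-Gpnmb+ of 4 months (SD; n = 7, 25, 9, 10 and 10). Fosb, in the same order of groups, averaged 1.44 ± 0.977, 9.38 ± 6.38, 16.4 ± 20.9, 1.18 ± 0.616 and 1.75 ± 0.645. For Egr1 the means were 33.8 ± 11.4, 84.7 ± 43.4, 86.9 ± 64.7, 32.7 ± 13.02 and 28.2 ± 12.3. In these 3 genes D2-Gpnmb+ of 9 months had the highest mean, but its median lay below that of DBA/2J of 9 months. The medians were 18.7 and 31.6 for Fos, 3.12 and 9.43 for Fosb, and 48.7 and 72.6 for Egr1. For Fos and Egr1 the means of these 2 groups differed by less than the smaller of their SDs. The neighbouring means of the 3 lowest groups also differed by less than that.

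Junb, Ier2 and Zfp36 had their highest mean in DBA/2J of 9 months on water. Junb averaged 1.77 ± 1.70 with nicotinamide, 3.56 ± 2.37 in DBA/2J of 9 months, 2.94 ± 3.38 in D2-Gpnmb+ of 9 months, 0.991 ± 0.507 in DBA/2J of 4 months and 0.841 ± 0.330 in D2-Gpnmb+ of 4 months. Ier2 averaged 2.04 ± 0.384, 3.67 ± 2.08, 2.84 ± 3.10, 1.47 ± 0.937 and 0.997 ± 0.512 in the same order, and Zfp36 8.93 ± 3.61, 18.6 ± 9.72, 12.8 ± 6.90, 7.07 ± 2.12 and 7.72 ± 2.19. In all 6 genes, the ranges of any pair of groups next to each other in the order of means overlapped. In D2-Gpnmb+ of 9 months the SD of Fos, Fosb, Junb and Ier2 exceeded the mean.

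**Figure D1:**
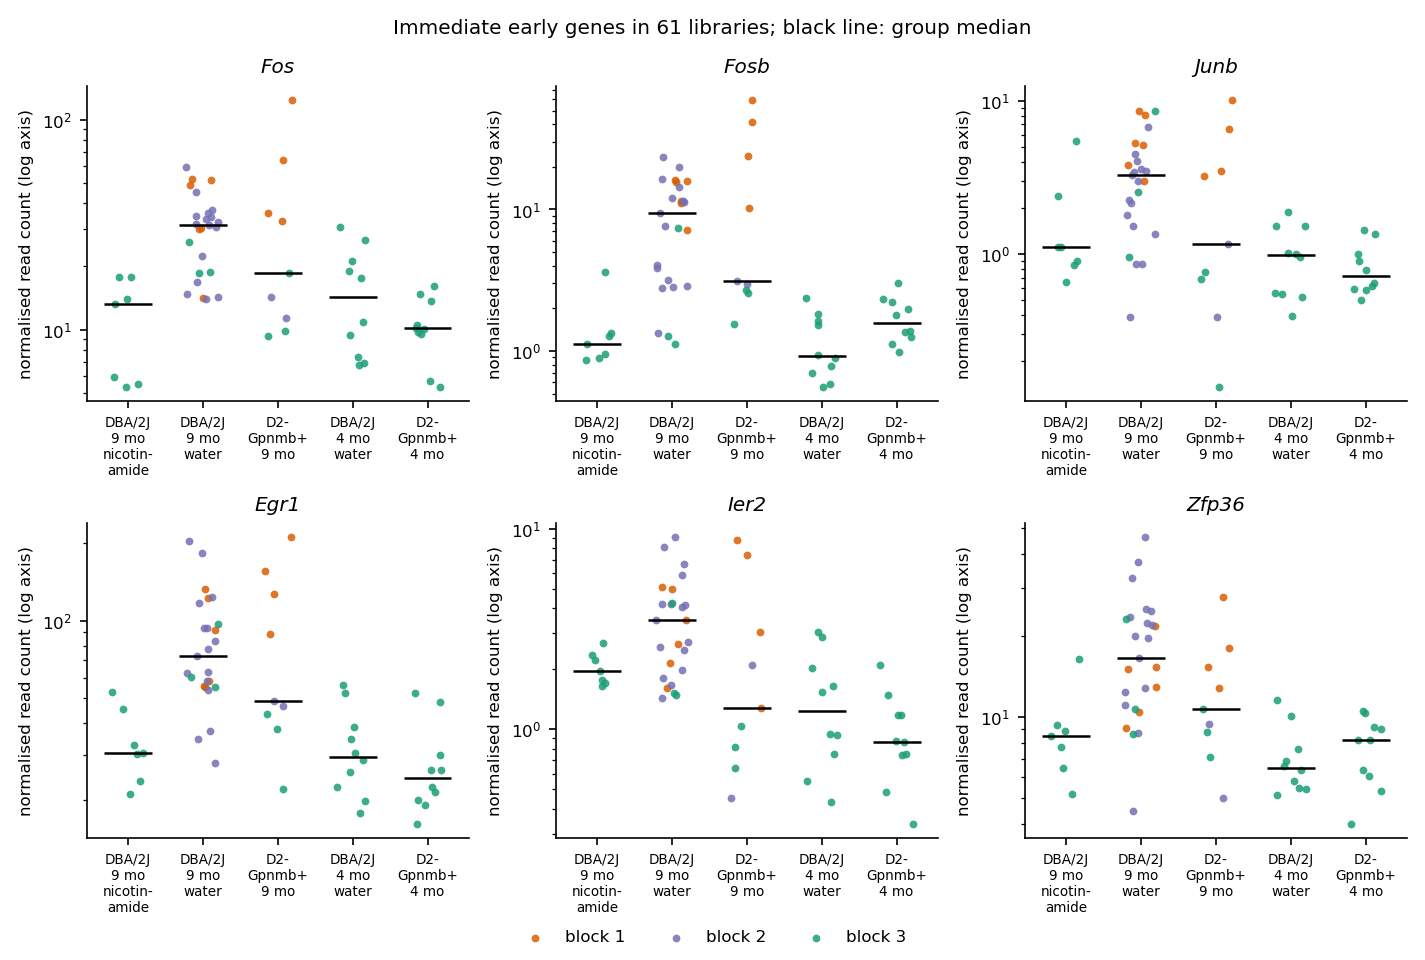
Normalised read count (log axis) of each gene in the 61 libraries, by group, with points coloured by block and a black line at the group median. The block 1 libraries of D2-Gpnmb+ at 9 months lie above the other libraries of that group for 5 of the 6 genes, all but Ier2.

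The comparison of 9-month with 4-month DBA/2J asked what changes as this strain ages towards glaucoma. All 6 genes rose in the pooled libraries, by 0.88 to 1.97 on the log2 scale, and Fosb rose most. Fos had a normalised read count of 14.1 to 59.8 (median 31.6) at 9 months, against 6.77 to 31.0 (median 14.2) at 4 months. Fosb ranged from 1.11 to 23.4 (median 9.43) at 9 months, against 0.557 to 2.37 (median 0.918) at 4 months. Of the 25 libraries of 9 months, 22 lay above the highest of 4 months for Fosb, 18 for Egr1, Junb and Zfp36, and 13 for Fos and Ier2. The ranges overlapped for every gene.

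The log2 fold changes were 1.97 ± 0.33 (SE) for Fosb, 1.28 ± 0.23 for Egr1, 1.16 ± 0.23 for Zfp36, 1.05 ± 0.25 for Junb, 1.02 ± 0.23 for Fos and 0.88 ± 0.22 for Ier2. The adjusted p ran from 0.000162 for Fosb to 0.0044 for Ier2 (limma on log2 of the value plus 1, Benjamini-Hochberg over 13587 genes). The same test called 22.4% of all genes tested, 9.25% higher and 13.2% lower at 9 months. That split depended on the tool, with 1712 genes higher and 1448 lower by edgeR and 2192 and 1517 by DESeq2 on recovered reads, and both called all 6 genes higher. The median log2 fold change was 1.10 over the 6 genes and 0.02 over all genes tested. All 6 remained called when any 1 of the 35 libraries was left out.

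Within block 3, with 3 libraries of 9 months and 10 of 4 months, none of the 6 genes passed the limma threshold (0.263% of genes were called), and 3 had an unadjusted p under 0.05, namely Junb, Egr1 and Zfp36. The direction was the same for all 6 and the size varied. Egr1 had 55.1, 60.3 and 97.4 in the 3 libraries of 9 months, against 17.9 to 56.2 (median 29.6) at 4 months. Its log2 fold change was 1.14 ± 0.31 (95% confidence interval 0.48 to 1.80, limma adjusted p 0.146), and 2 of the 3 libraries lay above all 10 of 4 months. Junb had 1.06 (interval 0.31 to 1.81) and Zfp36 0.83 (0.28 to 1.38), whereas the intervals of Fos (0.58, −0.33 to 1.49), Fosb (0.70, −0.05 to 1.45) and Ier2 (0.46, −0.25 to 1.17) included 0. Of 3 Fosb values of 9 months in block 3, 1 was 7.37 and the other two were 1.27 and 1.11, inside the range of 4 months. Without library 27 of DBA/2J, the lowest for Junb, Junb passed in block 3 (1.58, limma adjusted p 0.0296). With block as a term in the pooled fit, none of the 6 passed.

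Markers of microglia and macrophages moved with age in DBA/2J. Of 12 markers, 11 were tested and 10 were higher at 9 months, and their summed normalised read count ran from 2.87 to 353 at 9 months, against 3.62 to 9.33 at 4 months. The high sums lay in block 2 (16.8 to 353). In blocks 1 and 3 they were 2.87 to 9.16 and 5.57 to 7.76. Of the list's defining genes, C1qa was at 0 in 44 and Tyrobp in 41 of the 61 libraries. Egr1 averaged 86.2 ± 35.2 in the 6 libraries of block 1 and 86.7 ± 49.9 in the 16 of block 2. In the same order Fos averaged 38.0 ± 15.5 and 30.6 ± 12.2, Fosb 12.9 ± 3.61 and 9.20 ± 6.82, and Junb 5.63 ± 2.23 and 2.70 ± 1.63. Ier2 averaged 3.33 ± 1.48 and 4.03 ± 2.32, and Zfp36 14.1 ± 4.48 and 21.2 ± 10.8. In the 3 libraries of block 3, Egr1 averaged 70.9 (range 55.1 to 97.4), Fos 21.2 (18.7 to 26.1) and Fosb 3.25 (1.11 to 7.37). Junb averaged 4.004 (0.949 to 8.53), Ier2 2.42 (1.48 to 4.27) and Zfp36 14.2 (8.65 to 23.1) in block 3. Of 12 Müller glia and astrocyte markers, 5 were higher, with sums of 377 to 8325 at 9 months and 1303 to 4496 at 4 months. In block 3 none was called, the 9-month sums were 377 to 1498, and the list's median log2 fold change was −1.30, against 0.77 in the pooled libraries. Of 12 rod markers 4 were higher, with sums of 3332 to 72632 at 9 months and 4322 to 9684 at 4 months, and none was called in block 3, where the 9-month sums were 5980.2 to 7660.3. Of 11 amacrine and horizontal cell markers, 9 were tested and 7 were lower. The list summed to 44.4 to 520.3 at 9 months and 133 to 1172 at 4 months. None was called in block 3, where the 9-month sums were 143 to 379. Of 8 ganglion cell markers tested 2 were lower. That list summed to 30.2 to 114 at 9 months and 53.2 to 256 at 4 months. None was called in block 3, where the 9-month sums were 65.6 to 94.1. The share of reads on Rn45s, a ribosomal RNA precursor, was 4.45 ± 1.49% at 9 months and 2.84 ± 0.40% at 4 months. The 3 libraries of 9 months in block 3 had 2.12, 2.42 and 3.09%, against 2.31 to 3.42% at 4 months. The part of these in the result was not tested.

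**Figure D2:**
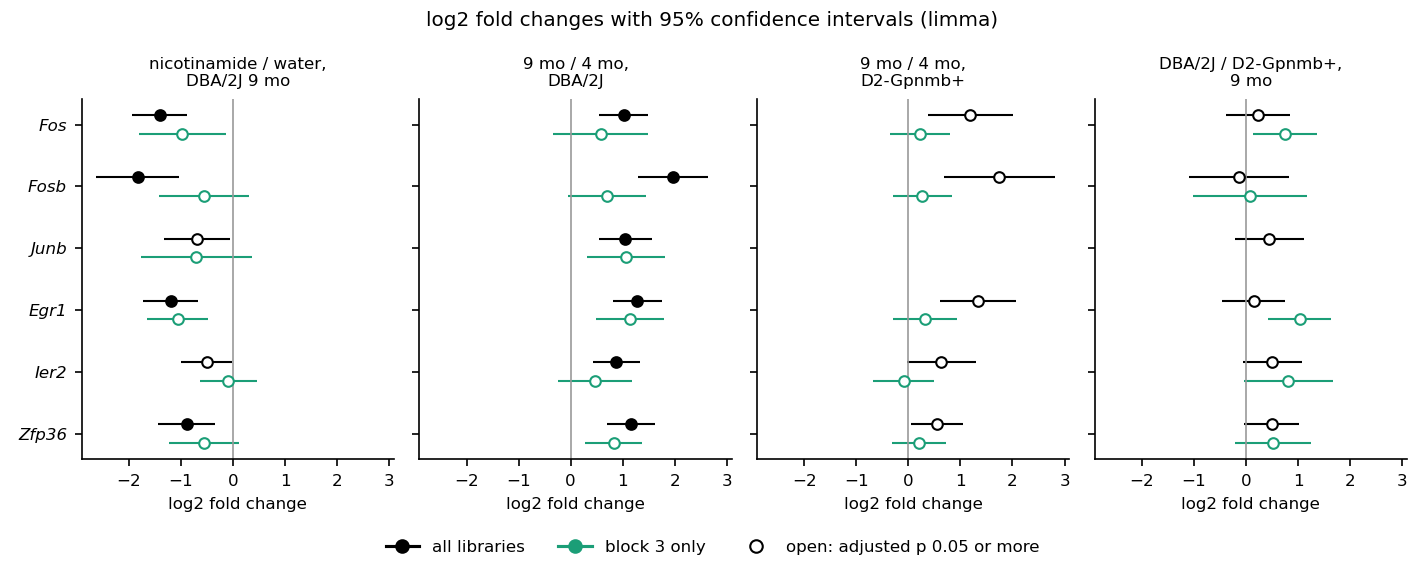
Log2 fold changes of the 6 genes with 95% confidence intervals in 4 comparisons, for all libraries (black) and for block 3 alone (green), with filled points where the adjusted p is under 0.05. No block 3 value is filled, and Egr1 has block 3 values of −1.06, 1.14, 0.32 and 1.03 from left to right. Junb was not tested in the third comparison, nor in block 3 of the fourth.

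The comparison of nicotinamide with water in 9-month DBA/2J asked what the treatment changes. Fos, Fosb, Egr1 and Zfp36 fell in the pooled libraries, by 0.89 to 1.83 on the log2 scale. Fos had 5.34 to 17.9 (median 13.3) with nicotinamide, against 14.1 to 59.8 (median 31.6) on water, and 5 of the 7 treated libraries lay below all 25 on water. Fosb had 0.867 to 3.61 (median 1.12) with nicotinamide, against 1.11 to 23.4 (median 9.43) on water, with 3 treated libraries below all on water. Egr1 had 21.1 to 52.7 (median 30.5) with nicotinamide, against 27.99 to 204 (median 72.6) on water, with 2 below. Zfp36 had 5.19 to 16.4 (median 8.50) with nicotinamide, against 4.47 to 46.1 (median 16.5) on water, and no treated library lay below all on water.

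The log2 fold changes were −1.83 ± 0.40 for Fosb, −1.41 ± 0.26 for Fos, −1.20 ± 0.26 for Egr1 and −0.89 ± 0.27 for Zfp36, with limma adjusted p of 0.00197, 0.000446, 0.00221 and 0.0237. Junb (−0.70, adjusted p 0.122) and Ier2 (−0.51, adjusted p 0.146) did not pass. The same test called 15.1% of all 13925 genes tested, 5.34% lower and 9.78% higher with nicotinamide, and edgeR on recovered reads called 1031 genes higher and 1244 lower, DESeq2 1186 and 1752, both with the same 4 of the 6 genes lower. Counts over all genes also moved with single treated libraries, to 1294 called and 344 lower without nicotinamide library 3, 1304 and 355 without library 7 and 1400 and 397 without library 4, against 2105 and 743 with all. The median log2 fold change was −1.04 over the 6 genes and −0.03 over all genes tested. Fos, Fosb and Egr1 passed whichever of the 32 libraries was left out. Zfp36 lost its call without nicotinamide library 1, 5 or 7 (limma adjusted p 0.0710, 0.0584 and 0.0535).

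The 25 libraries on water are the same ones that were set against 4-month mice, so both comparisons share their libraries. Within block 3, which holds all 7 treated libraries and 3 of the 25 on water, none of the 6 genes passed by limma (0.00749% of genes were called), and 2, Fos and Egr1, had an unadjusted p under 0.05. All 7 treated libraries lay below all 3 on water for Fos, at 5.34 to 17.9 with nicotinamide and 18.7 to 26.1 on water, and for Egr1, at 21.1 to 52.7 with nicotinamide and 55.1 to 97.4 on water. Among all genes tested in block 3, 1.8% were lower without overlap. The log2 fold changes were −1.06 ± 0.27 for Egr1 (95% confidence interval −1.65 to −0.48, limma adjusted p 0.109) and −0.97 ± 0.38 for Fos (−1.81 to −0.13, adjusted p 0.240). Fosb had −0.56 (−1.43 to 0.30), Junb −0.71 (−1.77 to 0.36), Zfp36 −0.56 (−1.23 to 0.11) and Ier2 −0.09 (−0.63 to 0.45). The pooled change of Fosb was thus more than 1.5 times that of block 3, where 2 of the 3 libraries on water were as low as treated ones. Without the third, library 26 of DBA/2J, Fosb had 0.08 in block 3. With block as a term in the pooled fit, none of the 6 passed.

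Of the 11 microglia and macrophage markers tested, 5 were lower with nicotinamide in the pooled libraries, with sums of 5.52 to 7.48 with nicotinamide and 2.87 to 353 on water. In block 3 the sums on water were 5.57 to 7.76. Of 12 Müller glia and astrocyte markers 4 were lower, with sums of 1381 to 2699 with nicotinamide and 377 to 8325 on water. In block 3 none was called, the 3 libraries on water summed to 377 to 1498, and the list's median log2 fold change was 0.93, against −0.96 in the pooled libraries. Of 9 amacrine and horizontal cell markers tested 8 were higher, with sums of 205 to 1205 with nicotinamide and 44.4 to 520.3 on water. Of 9 cone markers 7 were higher, with sums of 1787 to 2931 with nicotinamide and 630.2 to 2299 on water. None of either list was called in block 3, where sums on water were 143 to 379 and 1354 to 2299. Of 9 ganglion cell markers tested 2 were higher. That list summed to 65.6 to 183 with nicotinamide and 30.2 to 114 on water. None was called in block 3, where sums on water were 65.6 to 94.1. Rn45s took 2.62 ± 0.40% of reads with nicotinamide and 4.45 ± 1.49% on water. The 3 libraries on water in block 3 had 2.12, 2.42 and 3.09%, against 1.74 to 2.88% with nicotinamide. The part of these in the result was not tested.

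Nicotinamide-treated DBA/2J of 9 months were also set against untreated DBA/2J of 4 months, which all lie in block 3. None of the 6 genes passed the threshold by limma (1.54% of genes were called), edgeR or DESeq2, and 0 had an unadjusted p under 0.05. Egr1 had 21.1 to 52.7 (median 30.5) with nicotinamide, against 17.9 to 56.2 (median 29.6) at 4 months, and its log2 fold change was 0.08 with a 95% confidence interval of −0.41 to 0.57. Fos had −0.40 (−1.14 to 0.35), Fosb 0.14 (−0.30 to 0.57), Junb 0.35 (−0.15 to 0.86), Ier2 0.37 (−0.06 to 0.81) and Zfp36 0.27 (−0.11 to 0.65). On the scale of log2 of the value plus 1, the intervals of Fosb, Egr1 and Zfp36 reach at most 0.65 upwards, and those of Junb, Ier2 and Fos leave room for a change of 0.81 to 1.14 in 1 direction. That scale understates the fold changes of low genes. Fosb averaged 1.44 with nicotinamide and 1.18 at 4 months, so its interval leaves room for larger fold changes than it shows, as do those of Junb and Ier2. All ranges overlapped.

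**Figure D3:**
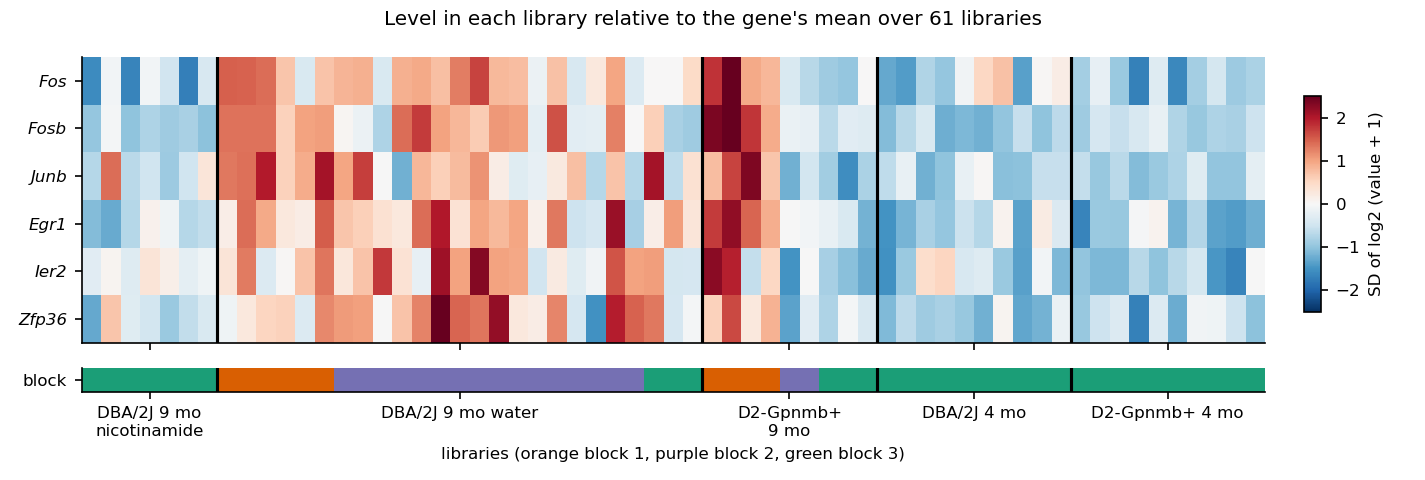
Level of each gene in each library as SDs from the gene's mean of log2 (value + 1) over the 61 libraries, with libraries by group and the block of each below. The block 1 libraries of D2-Gpnmb+ at 9 months lie above the gene's mean except 1 of them for Ier2, and among 9-month DBA/2J on water red and blue libraries stand side by side.

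The age comparison in D2-Gpnmb+ asked whether similar changes occur without glaucoma. None of the 5 genes tested passed the limma threshold, though 4, all but Ier2, had an unadjusted p under 0.05. The test called 0.0232% of 12910 genes, and 3917 had an unadjusted p under 0.05. Log2 fold changes were 1.75 ± 0.51 for Fosb, 1.34 ± 0.35 for Egr1, 1.19 ± 0.39 for Fos, 0.63 ± 0.32 for Ier2 and 0.56 ± 0.24 for Zfp36, with limma adjusted p of 0.0741 to 0.186. Junb did not pass the filter on low values. Without the filter its log2 fold change was 0.69 (limma adjusted p 0.187). The edgeR test on recovered reads called 3 of the 5 genes, Fos, Fosb and Egr1, and DESeq2 called Ier2 as well.

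The values at 9 months came from libraries of 2 kinds. Fosb had 10.3, 23.9, 41.3 and 59.1 in the 4 libraries of block 1, 2.96 and 3.12 in block 2 and 1.55, 2.56 and 2.71 in block 3, against 0.987 to 3.02 (median 1.59) at 4 months. Egr1 had 88.9, 127, 156 and 211 in block 1, 46.7 and 48.7 in block 2 and 22.1, 37.8 and 43.3 in block 3, against 16.1 to 52.1 (median 24.3) at 4 months. Fos had 33.0, 36.0, 64.5 and 124 in block 1, 11.4 and 14.4 in block 2 and 9.36, 9.83 and 18.7 in block 3, against 5.35 to 16.2 (median 10.1) at 4 months. In Fos, Fosb, Junb, Egr1 and Zfp36, the 4 libraries of block 1 lay above the other 5 libraries of 9 months without overlap. Ier2 overlapped, with 1.28 to 8.80 in block 1 and 0.455 to 2.10 in the other 5.

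The same block 1 libraries had the highest summed Müller glia and astrocyte markers, 11190.2 to 16043, against 1547 to 3520 in the other 5 libraries of D2-Gpnmb+ at 9 months and 1687 to 3821 at 4 months. In DBA/2J of 9 months, block 1 had sums of 3877 to 8325, and there the block 1 libraries overlapped with the other 19 for all 6 genes. In D2-Gpnmb+ of 9 months the block 1 libraries also had higher sums of 10 endothelium and vessel wall markers. These were 752 to 1078, against 109 to 226 in the other 5. Block 1 of D2-Gpnmb+ had lower sums of 9 cone markers (446 to 911, against 1351 to 2982). It also had lower sums of 10 bipolar cell markers (3520 to 4132, against 5672 to 8559). Rn45s took 4.24 to 8.16% of reads in these block 1 libraries, against 1.48 to 4.64% in the other 5. The part of these in the result was not tested. Within block 3, with 3 libraries of 9 months and 10 of 4 months, log2 fold changes were 0.32 for Egr1 (95% confidence interval −0.29 to 0.93), 0.27 for Fosb (−0.30 to 0.83), 0.23 for Fos (−0.34 to 0.81), 0.21 for Zfp36 (−0.31 to 0.73) and −0.09 for Ier2 (−0.67 to 0.49), and 0% of genes were called.

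Whether ageing differed between the strains was tested with an interaction term over the 4 water groups. None of the 6 genes passed by limma (0.375% of genes were called), edgeR or DESeq2, and 0 had an unadjusted p under 0.05. The differences of the age effects, DBA/2J minus D2-Gpnmb+, ran from −0.18 for Fos to 0.60 for Zfp36. Their 95% confidence intervals were wide, −1.05 to 0.69 for Fos, −0.98 to 1.41 for Fosb, −0.89 to 0.76 for Egr1 and −0.10 to 1.30 for Zfp36. In block 3 the differences were 0.35 for Fos, 0.43 for Fosb, 0.55 for Ier2, 0.62 for Zfp36, 0.82 for Egr1 and 1.33 for Junb, and none passed (0.0774% of genes were called). Without library 27 of DBA/2J, Junb passed there (1.86, limma adjusted p 0.0210).

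Between the strains at 9 months, none of the 6 genes passed by limma (0.0218% of genes were called), edgeR or DESeq2, and 0 had an unadjusted p under 0.05. Log2 fold changes of DBA/2J over D2-Gpnmb+ were 0.51 for Ier2, 0.49 for Zfp36, 0.45 for Junb, 0.23 for Fos, 0.15 for Egr1 and −0.13 for Fosb. For Egr1, Fos, Ier2 and Zfp36 the sign differed between blocks 1 and 3. It also did for Fosb, but in block 3 its value ran from −0.56 to 0.43 when a library was left out. There 2 of the 3 DBA/2J libraries lay below all 3 of D2-Gpnmb+ for Fosb. In block 2, DBA/2J (n = 16) had the higher mean for all 6 genes, but D2-Gpnmb+ had only 2 libraries. The block 2 means were 30.6 and 12.9 for Fos, 9.20 and 3.04 for Fosb, and 86.7 and 47.7 for Egr1. Junb had 2.70 and 0.778, Ier2 4.03 and 1.28, and Zfp36 21.2 and 7.21. None of the 6 passed by limma in block 2, with 0% of genes called. In block 1, Fosb was lower in DBA/2J, at 7.15 to 16.02 (median 13.6) in 6 libraries of DBA/2J and 10.3, 23.9, 41.3 and 59.1 in 4 of D2-Gpnmb+ (log2 fold change −1.11 ± 0.35, limma adjusted p 0.0401, with 12.3% of genes called), and Egr1 had −0.78 ± 0.26 (adjusted p 0.0574). In block 3, with 3 libraries each, Egr1 had 55.1, 60.3 and 97.4 in DBA/2J, against 22.1, 37.8 and 43.3 in D2-Gpnmb+, a log2 fold change of 1.03 (95% confidence interval 0.42 to 1.64, limma adjusted p 0.661, with 0% of genes called). There the groups also did not overlap for Fos, though the nearest values were both 18.7, nor for Ier2, which had 5 to 6 reads in D2-Gpnmb+. Junb did not overlap either, but it had 1 to 6 reads in D2-Gpnmb+ and was not among the genes tested in block 3. Among all genes tested in block 3, 5.78% were higher in DBA/2J without overlap.

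Between the strains at 4 months, none of the 4 genes tested passed by limma (0.25% of genes were called), edgeR or DESeq2, and 0 had an unadjusted p under 0.05. Junb and Ier2 did not pass the filter on low values. Log2 fold changes of DBA/2J over D2-Gpnmb+ were 0.41 for Fos (95% confidence interval −0.13 to 0.95), 0.21 for Egr1 (−0.25 to 0.67), −0.10 for Zfp36 (−0.45 to 0.24) and −0.35 for Fosb (−0.72 to 0.03). Fos and Fosb thus had opposite signs, and both intervals included 0.

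Other early genes were counted from lists of related genes, to be read against the 9.25% of all genes called higher and the 13.2% called lower with age in DBA/2J. Of 11 other AP-1 subunits and partners, 8 were tested for age in DBA/2J, and Atf3, a stress-induced factor, and Mafk rose while none fell. Atf3 had 0.302 to 28.9 (median 3.71) at 9 months, against 0.132 to 1.99 (median 1.13) at 4 months, with a log2 fold change of 1.26 ± 0.35 (limma adjusted p 0.00904). It also passed in block 3, at 2.40 ± 0.44 (limma adjusted p 0.0229). Of 8 other EGR and NR4A genes and their partners, 4 were tested, and Nab1 (−0.57) and Nab2 (−0.63), both repressors that bind EGR proteins, fell. None of the 6 tested in block 3 passed, and the list's median log2 fold change was −0.18 there, against −0.53 in the pooled libraries. Of 35 other immediate early genes, 30 were tested, 12 rose and 1, the synaptic scaffold gene Homer1, fell, and their median log2 fold change was 0.41, against 0.02 over all genes tested. The 4 with the smallest adjusted p were Cyr61, which encodes a matrix protein (2.05 ± 0.33, limma adjusted p 8.51e-05), Ier3 (0.87 ± 0.19, 0.00109), Csrnp1 (1.03 ± 0.22, 0.00112) and Dusp6, a phosphatase of ERK (1.29 ± 0.29, 0.00157). In block 3 Cyr61 had 0.18, Dusp6 −0.03 and Csrnp1 0.50, and none of the 30 tested there passed.

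With nicotinamide, 9 of the 33 other immediate early genes tested fell and none rose, where 5.34% of all genes were called lower, with a median log2 fold change of −0.36 against −0.03 over all genes tested. The 4 with the smallest adjusted p were Cyr61 (−1.64 ± 0.39, limma adjusted p 0.00388), the kinase gene Sik1 (−0.99 ± 0.24, 0.00439), Dusp1, a phosphatase of MAP kinases (−0.84 ± 0.20, 0.00447) and Dusp6 (−1.27 ± 0.33, 0.00816). Jun (−0.81, limma adjusted p 0.0376) and Nr4a1, an orphan nuclear receptor (−0.90, limma adjusted p 0.0111), fell too, the only genes called among 8 AP-1 and 5 EGR and NR4A genes tested. Dusp1 had 17.2 to 36.4 (median 25.9) with nicotinamide, against 25.7 to 103 (median 51.1) on water. In block 3 none of the 3 lists had a gene past the threshold, with −0.92 for Dusp1, −0.91 for Nr4a1, 0.23 for Cyr61, 0.05 for Dusp6 and 0.35 for Jun. Dusp1 and Nr4a1 thus had block 3 values near the pooled ones, and Cyr61, Dusp6 and Jun had values of the opposite sign.

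**Figure D4:**
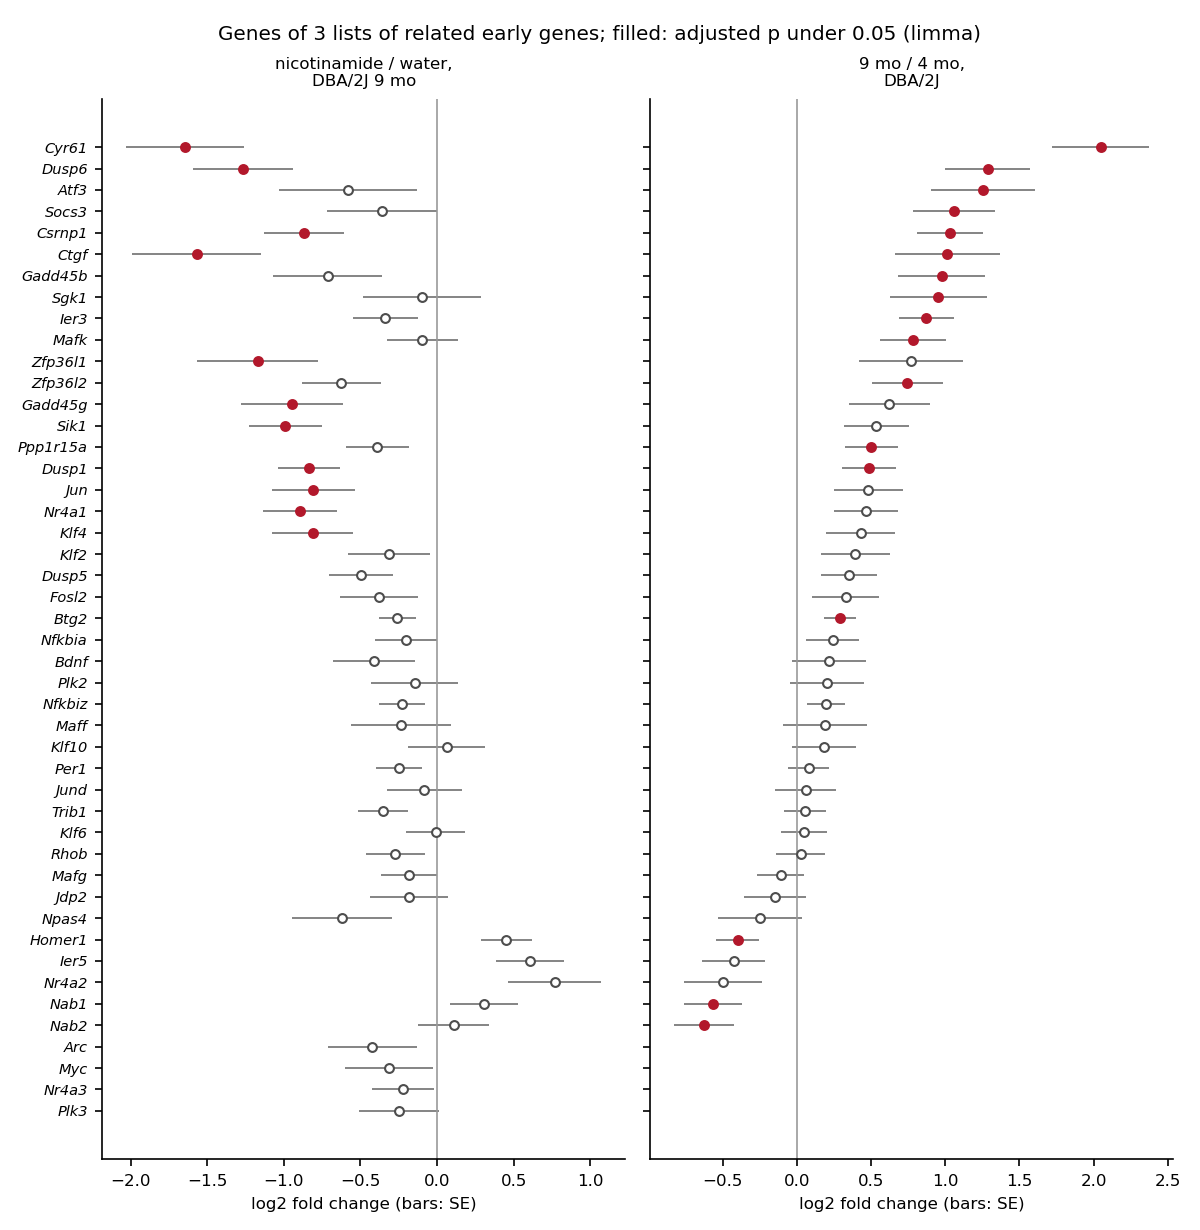
Log2 fold changes with standard errors of other AP-1, EGR, NR4A and immediate early genes for nicotinamide against water (left) and 9 against 4 months (right) in DBA/2J, filled where the adjusted p is under 0.05. Both panels share the 25 libraries on water at 9 months. Cyr61 lies farthest from 0 in both, at −1.64 and 2.05, and 4 genes at the bottom were not tested on the right.

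The 6 genes also varied together between libraries of 1 group. After the mean of each group within each block was removed, all 15 pairs had a positive Pearson r over the 61 libraries, from 0.13 (Junb with Egr1) to 0.48 (Fosb with Zfp36), with a median of 0.36. Spearman's rho ran from 0.16 to 0.44, and Pearson's r without the 2 libraries farthest from the median ran from 0.11 to 0.46. In the 16 DBA/2J libraries of block 2 the median was 0.44, with 0.66 for Fosb with Egr1, 0.65 for Fos with Fosb and 0.00 for Fosb with Junb. Values in 1 library share its depth, its scaling and its mix of cells, so these coefficients are descriptions.

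**Figure D5:**
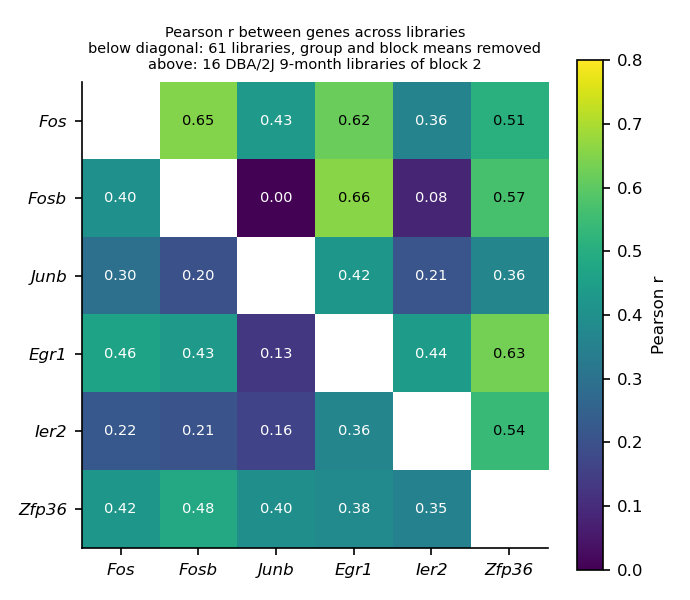
Pearson r between the 6 genes across libraries, below the diagonal over 61 libraries after group and block means were removed, above it in the 16 block 2 libraries of DBA/2J at 9 months. Coefficients below the diagonal run from 0.13 to 0.48.

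Among 9981 other genes with a mean of at least 5, Mtrf1l (Pearson r of 0.57 over 61 libraries), Ginm1, Spcs1 and Fibp (0.54 each) were among the 6 whose residuals were most like the average of the 6 genes. Without the 2 libraries farthest from the median, Mtrf1l had 0.47 and Ginm1 0.55. None of these 4 was in a list of related genes. Lists were set against the same average by their summed level, as log2 of the sum plus 1 with group and block means removed. Pearson r was 0.58 for the AP-1 list, 0.38 for the other immediate early genes and 0.26 for the other EGR and NR4A genes. Among cell type lists the values were 0.36 for microglia and macrophages, −0.17 for Müller glia and astrocytes and −0.27 for rods. Bipolar cells had 0.17, cones 0.04, endothelium and vessel wall −0.16, ganglion cells −0.17 and amacrine and horizontal cells −0.21. Spearman's rho was 0.39 for the AP-1 list, 0.36 for the other immediate early genes and 0.27 for the other EGR and NR4A genes. For microglia and macrophages it was 0.25.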

How the data were processed

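RNA sequencing was done on sorted retinal cells. The submitters' processing notes name TopHat2 2.0.7, Bowtie2 2.0.6, HTSeq and mm10. Each deposited value is a normalised signal, the read count of a gene over a scaling term per library that the authors do not state, on a scale near reads per 1e6. Divided by the smallest step of their library, 100% of values fell within 0.05 of a whole number, which gave back whole reads. Of 15171 rows, 22 with names turned into dates were left out. Column names give the group but not the single sample, and unused columns numbered 0.

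As the values are not counts, limma 3.58.1 in R 4.3.3 (trended and robust) was fitted on log2(value + 1). Each fit used the libraries of its own groups, and a gene entered it if the number of libraries with a value of 1 or more reached the size of the smaller group. Fold changes on this scale understate those of low genes. Adjusted p-values are Benjamini-Hochberg values over all genes tested, with a threshold of 0.05. Alternatives were edgeR 4.0.16 and DESeq2 1.42.0 on recovered reads, scaling to total reads, a pseudocount of 5, no filter, block as a term, block 3 alone, all 5 groups in 1 fit and leaving out each library. On recovered reads edgeR called 2275 genes for nicotinamide and 3160 for age in DBA/2J. The limma step was tested on simulated data.

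The 6 genes, the gene lists and the tests were chosen with earlier results of these data known. Named were the 6 genes, up to 4 called genes of each list and comparison with the smallest adjusted p, and the 6 genes with the most similar residuals, some of which are not reported here. Values given for other genes of the lists were chosen after the values were seen. Promoter sequences are from RefSeq and exon positions from GENCODE. Ier2 and Egr1 promoters are not used here.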

Additional observations from a re-analysis of the deposited data

Results flagged for a closer look

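For each of the 6 genes, the highest and lowest library of the 4 groups with 7 to 10 libraries were checked for a gap to the nearest library that is large against the range of the group. Of 24 such groups of values 4 had one. A chance rate of about 1 in 20 holds for independent, normally distributed values. Here the values were on the linear scale and the same libraries served all 6 genes, so that rate cannot be relied on. Fos in D2-Gpnmb+ of 9 months was 123.7 in library 4, and the nearest library had 64.5. The other three were all nicotinamide library 2. It had 3.61 for Fosb, against 1.34 in the next treated library, 5.42 for Junb, against 2.38, and 16.4 for Zfp36, against 9.33. For Egr1 the same library was the lowest of the 7, at 21.1.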

How the results depend on the processing

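With block as a term, 0 of the 6 genes were called for nicotinamide and 0 for age in DBA/2J, and in block 3 alone 0 and 0, against 4 and 6 in the pooled libraries. Over all genes, calls went to 0 with block as a term and 1 in block 3 for nicotinamide (2105 pooled), and to 8 and 36 for age in DBA/2J (3044 pooled). With block 3 alone only 3 DBA/2J libraries of 9 months on water remain. For age in D2-Gpnmb+, 0 of 5 became 3 with edgeR, 4 with DESeq2 and 3 with all 5 groups in 1 fit, and 0 to 3 when a library was left out (3 without D2-Gpnmb+ library 9, 13 or 14 of 9 months and 2 without library 15). For strain at 9 months, 0 became 1 in block 1. The cause was not tested. Of the values of the 6 genes that passed in the pooled libraries, Fosb for nicotinamide changed sign, to 0.08 in block 3 without DBA/2J library 26, and no other did. In block 3 without DBA/2J library 27, calls over all genes went to 378 for nicotinamide and 255 for age in DBA/2J. Over all settings other than leaving out a library, 272 values kept their side of the threshold, 11 passed it and 20 lost it; over those that leave out a library, 1193 kept it, 11 passed it and 3 lost it. No paired analysis was possible because the groups share no library numbers in the labels. Counts over all genes moved by more than 1.5 times for age in D2-Gpnmb+ (3 with limma, 1495 with edgeR, 2114 with DESeq2, 1653 with all groups), for strain at 9 months (3, 11, 318 and 680), for strain at 4 months (32 with limma, 240 with DESeq2, 20 scaled to total reads and 2 with all groups), for the interaction (53 with limma, 293 with DESeq2, 215 scaled to total reads and 146 with all groups) and for nicotinamide against 4 months (200 with limma, 499 with DESeq2 and 0 with all groups). When values were scaled to total reads, the median over genes shifted by 0.31 for age in D2-Gpnmb+, 0.24 for strain at 4 months, −0.13 for strain at 9 months and −0.36 for the interaction. Junb and Ier2, with medians of 6 to 11 reads in young mice, are limited by depth.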

Other observations

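Further lists held genes that carry signals to immediate early promoters and heat shock genes. For age in DBA/2J the counts called were 4 of 21 upstream regulators and 2 of 10 heat shock genes, against 22.4% of all genes. Of the 21 upstream regulators, the ERK gene Mapk3 (0.54, limma adjusted p 0.0164) and Elk3, a partner of SRF (0.70, 0.0245), rose, and the JNK genes Mapk8 (−0.54, 0.00149) and Mapk10 (−0.61, 0.00186) fell. With nicotinamide, 1 of 21 passed, Mapk8 (0.40, limma adjusted p 0.0482), against 15.1% of all genes. Of 10 heat shock genes, Hspa1a (0.97, limma adjusted p 0.00437) and Hspa1b (1.33, 0.000325) rose with age in DBA/2J, and Hspa1b (−0.83, 0.0489) and the small heat shock gene Hspb1 (−0.81, 0.0214) fell with nicotinamide. In block 3 Hspa1a had −0.10 and Hspa1b 0.25 for age, and Hspa1b had 0.25 for nicotinamide. In nicotinamide-treated DBA/2J against 4-month DBA/2J, Sgk1, a serum- and glucocorticoid-induced kinase gene, was the only gene of these 5 lists that passed (0.86, limma adjusted p 0.0412).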
